A study of Caenorhabditis elegans with 4 samples.

Results

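The UDP-glycosyltransferase family of Caenorhabditis elegans was taken as the genes whose symbol in the deposited count tables is ugt followed by a number. This rule found 66 genes among the 46881 listed, and it used no expression value. All 66 are annotated as protein-coding. Poly(A)-selected RNA of whole wild-type hermaphrodites (strain Bristol N2) was sequenced. In the MI-OMU01 group the worms were fed a natto strain of Bacillus subtilis, and in the OP50 group they were fed Escherichia coli OP50, the usual laboratory food. Worms of both groups were 3 days old when they were placed on the bacterial lawn and remained there for 1 day. Each group was sampled as about 200 worms and had 2 libraries. Whether those came from separate cultures is not stated, so p-values reflect library-to-library spread, possibly technical in part or whole. Library totals ran from 17601286 to 24381952 counted reads in the MI-OMU01 group and from 16962082 to 17327035 in the OP50 group. In whole worms, fewer cells of a type and less RNA per cell cannot be told apart.

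UDP-glycosyltransferases are membrane enzymes of the endoplasmic reticulum that move a sugar from a UDP-sugar donor to a small lipophilic molecule. The sugar makes the product more soluble in water, so the family is counted with phase II detoxification, after the oxidation of foreign compounds by cytochromes P450. Mammalian members mostly transfer glucuronic acid, whereas nematodes mostly attach glucose, for example to bacterial indole and phenazines and to anthelmintic drugs. Most worm members have no assigned substrate, and many lie beside each other in tandem runs.

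MI-OMU01-fed worms held more transcript of some members of the family and less of others than OP50-fed worms, whereas the direction of the difference in its total depended on the scaling. The summed level of the 66 genes was 569 and 589 CPM (read counts relative to library size, scaled between libraries by the TMM method) in the MI-OMU01 libraries, against 612 and 632 CPM in the OP50 libraries. The group means were 579 ± 14.1 CPM in MI-OMU01-fed worms and 622 ± 14 CPM in OP50-fed worms (SD, n = 2 each), a ratio of 0.931. An exact two-sided permutation test gave p = 0.333, the smallest value that 2 against 2 libraries allow. Scaled by total counts, the ratio was 1.02. Divided by exonic length and scaled to a common total (TPM), the sum was 472 and 480 in the MI-OMU01 libraries. In the OP50 libraries it was 439 and 443 TPM, so this sum was also higher in MI-OMU01-fed worms. As a share of all counted reads the family held 0.0597% and 0.0615% in the MI-OMU01 libraries and 0.0588% and 0.0599% in the OP50 libraries.

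Beneath this total, 14 ugt genes were higher and 20 were lower in MI-OMU01-fed worms by edgeR's quasi-likelihood test with Benjamini-Hochberg adjustment at a threshold of 0.05. These 34 genes were 57.6% of the 59 ugt genes tested, where 29.7% of all 14967 genes tested passed. Of all genes tested 14.6% were higher and 15.2% were lower, against 23.7% and 33.9% of the 59 ugt genes tested. At least a 2-fold change was reached by 9 of the higher and 16 of the lower ugt genes, where 6.45% and 6.34% of all tested genes did so. The median absolute log2 fold change was 0.89 among the tested ugt genes and 0.29 among all tested genes, while the signed medians were -0.16 and 0.03. Scaling by total counts put the median of all tested genes at 0.16, and 16 ugt genes were higher and 18 lower. The libraries of the groups did not overlap in CPM for 47 of the 59 tested members, all 34 called ones among them, and for 63.1% of all tested genes. Of the 59 tested members, 6 reached the count filter in both libraries of only a single group (ugt-42, ugt-8, ugt-37, ugt-33, ugt-15 and ugt-27), and a difference in such genes is partly fixed by the filter, so these counts describe the family and are no support for a difference from other genes.

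The 14 higher genes together stood at 260 and 280 CPM in the MI-OMU01 libraries and at 121 and 130 CPM in the OP50 libraries. The 20 lower genes stood at 103 and 109 CPM in the MI-OMU01 libraries and at 279 and 298 CPM in the OP50 libraries. These sums were formed after the calls and only show how much transcript each class held.

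**Figure D1:**
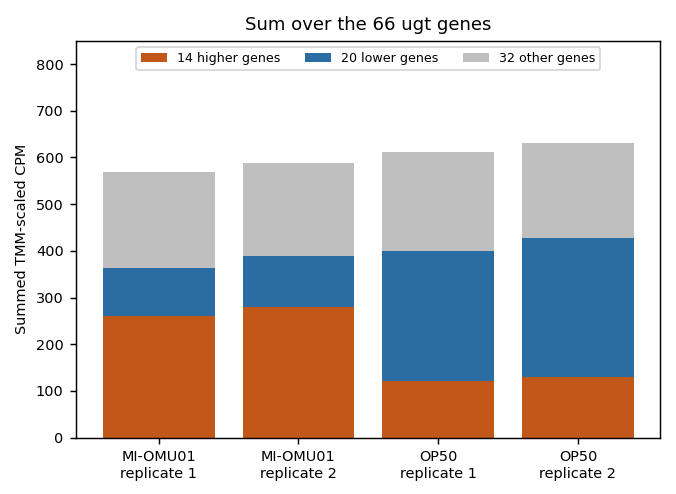
Summed TMM-scaled CPM of all 66 ugt genes in each library, split into the 14 genes called higher, the 20 called lower and the 32 others; bars start at 0. The total is 569 to 589 CPM in the MI-OMU01 libraries and 612 to 632 CPM in the OP50 libraries, while the higher class takes 260 to 280 CPM in MI-OMU01 and 121 to 130 CPM in OP50.

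The rise of ugt-18 exceeded that of every other tested member. This gene (WBGene00013900, chromosome V, 12820265 to 12822758 on the plus strand in WBcel235) had 45.0 and 54.5 CPM in the MI-OMU01 libraries, against 2.02 and 1.71 CPM in the OP50 libraries. The fold was 26.6 (log2 fold change 4.74, SE 0.20, adjusted p = 6.93e-13, edgeR). It ran from 4.59 to 4.87 on the log2 scale over the alternatives tried. Of all reads counted to the family, ugt-18 took 7.90% and 9.25% in the MI-OMU01 libraries and 0.331% and 0.270% in the OP50 libraries. On the per-length scale (TPM, counts divided by exonic length and scaled to a common total) it ranked 2 of the 66 members in both MI-OMU01 libraries, and 47 and 48 in the OP50 libraries.

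Both genes that follow ugt-18 on the chromosome rose too. The end gene of this run, ugt-15 (12827770 to 12830109), had 3.47 and 4.40 CPM in MI-OMU01-fed worms and 0.429 and 0.670 CPM in OP50-fed worms, a 7.13-fold rise (log2 fold change 2.83, SE 0.37, adjusted p = 6.74e-06). The OP50 values rest on 7 and 11 reads. Because ugt-15 reached the count filter in both libraries of the MI-OMU01 group only, its difference is partly fixed by the filter. Between them, ugt-16 had 5.04 and 4.09 CPM in MI-OMU01-fed worms and 1.90 and 1.71 CPM in OP50-fed worms, a 2.51-fold rise.

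A second pair of neighbours, ugt-1 and ugt-2, rose by similar amounts. For ugt-1 the MI-OMU01 libraries held 4.39 and 5.70 CPM and the OP50 libraries 1.17 and 1.64 CPM, a 3.60-fold rise (adjusted p = 8.36e-05, edgeR). For ugt-2 they held 20.9 and 26.4 CPM in MI-OMU01-fed worms and 7.12 and 7.61 CPM in OP50-fed worms, a 3.22-fold rise (log2 fold change 1.69, SE 0.17, adjusted p = 3.29e-07). The lowest MI-OMU01 value exceeded the highest OP50 value in both genes.

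The other rises among the 10 largest were smaller. ugt-4 stood at 14.4 and 13.0 CPM in MI-OMU01-fed worms against 5.71 and 5.30 CPM in OP50-fed worms, 2.48-fold higher. ugt-31 (3.52 and 4.17 CPM in MI-OMU01-fed worms, 1.78 and 1.77 CPM in OP50-fed worms) rose 2.17-fold, with an adjusted p of 0.00553 that became 0.0749 without MI-OMU01 replicate 2. ugt-52 and ugt-54, both on chromosome IV, each rose 2.07-fold. For ugt-52 the libraries held 11.8 and 12.7 CPM in MI-OMU01-fed worms and 5.77 and 6.09 CPM in OP50-fed worms, and for ugt-54 11.5 and 12 CPM in MI-OMU01-fed worms and 5.83 and 5.54 CPM in OP50-fed worms. The rise of ugt-24 was 1.63-fold with an adjusted p of 0.0485 in edgeR, which was 0.0792, 0.151, 0.127 and 0.252 when each of the libraries was left out in turn and 0.189 in DESeq2. It was also 0.0564 with DESeq2 size factors in edgeR and 0.0817 with no filter on low counts.

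Among the falls, ugt-8 changed most. It lies on chromosome V (WBGene00019234, 4903930 to 4905918) and had 0.217 and 0.432 CPM in the MI-OMU01 libraries, from 4 and 11 reads, against 5.34 and 4.32 CPM in the OP50 libraries, from 87 and 71 reads. The fall was 14-fold (log2 fold change -3.81, SE 0.38, adjusted p = 2.43e-07, edgeR). Without MI-OMU01 replicate 2 the log2 fold change was -4.43. Because ugt-8 reached the count filter in both libraries of the OP50 group only, its difference is partly fixed by the filter. ugt-66, on chromosome III at 6192116 to 6194580, had 1.19 and 0.668 CPM in MI-OMU01-fed worms and 7.85 and 12.5 CPM in OP50-fed worms, an 11.3-fold fall (log2 fold change -3.49, SE 0.32, adjusted p = 5.79e-08). The OP50 libraries differed from each other here more than in most members, yet the lower of them was several times the higher MI-OMU01 library.

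The gene ugt-13, in the same run as ugt-8, had 1.03 and 1.93 CPM in MI-OMU01-fed worms and 7.61 and 8.10 CPM in OP50-fed worms, 5.14-fold lower. ugt-22, which in C. elegans has been linked to tolerance of the anthelmintic albendazole, had 7.97 and 7.74 CPM in MI-OMU01-fed worms and 32 and 32.1 CPM in OP50-fed worms. Its 4.08-fold fall had an SE of 0.15 on the log2 scale and an adjusted p of 4.68e-09 in edgeR, with hardly any spread within a group. ugt-46, on the X chromosome, was the member with the highest TPM in both OP50 libraries. It had 22.2 and 24.9 CPM in MI-OMU01-fed worms against 63.2 and 72.1 CPM in OP50-fed worms, a 2.87-fold fall (adjusted p = 2.08e-08, edgeR).

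Of the remaining large falls, ugt-25 had 4.23 and 2.83 CPM in MI-OMU01-fed worms and 13.3 and 14.3 CPM in OP50-fed worms, and ugt-26 of the same run had 4.12 and 4.48 CPM in MI-OMU01-fed worms and 12.5 and 13.6 CPM in OP50-fed worms. They fell 3.95-fold and 3.02-fold. ugt-65 (2.22 and 2.36 CPM in MI-OMU01-fed worms, 8.04 and 8.65 CPM in OP50-fed worms) fell 3.63-fold. ugt-41 (0.922 and 1.26 CPM in MI-OMU01-fed worms, 3.68 and 4.51 CPM in OP50-fed worms) fell 3.68-fold. The 2.77-fold fall of ugt-42 rested on 5 and 20 reads in the MI-OMU01 libraries and 24 and 27 reads in the OP50 libraries. Its adjusted p of 0.0226 was 0.253 (log2 fold change -0.99) with MI-OMU01 replicate 1 left out and 0.0726 with OP50 replicate 2 left out (-1.40 on the log2 scale), and leaving out MI-OMU01 replicate 2 gave -2.49. In DESeq2 the adjusted p of ugt-42 was 0.0977. This gene too reached the count filter in both libraries of the OP50 group only.

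The other 10 lower genes (ugt-17, ugt-32, ugt-39, ugt-12, ugt-28, ugt-48, ugt-9, ugt-21, ugt-60 and ugt-57) had log2 fold changes from -1.43 to -0.52, and the other 4 higher genes (ugt-5, ugt-49, ugt-45 and ugt-23) from 0.43 to 0.70. Among these the weakest were ugt-9 (adjusted p = 0.0459, edgeR), ugt-57 (0.0152) and ugt-23 (0.0392). The call of ugt-9 ended if OP50 replicate 2 (0.154) or MI-OMU01 replicate 1 (0.177) or 2 (0.169) was left out, in DESeq2 (0.174) and when scaled by total counts (0.0813). That of ugt-57 ended without MI-OMU01 replicate 1 (0.129) or 2 (0.0839) or scaled by total counts (0.0609). That of ugt-23 ended if OP50 replicate 1 (0.341) or MI-OMU01 replicate 1 (0.103) or 2 (0.240) was left out, in DESeq2 (0.107) and with DESeq2 size factors in edgeR (0.0545). The calls of ugt-32 (0.0710 without OP50 replicate 2), ugt-5 (0.0571 without MI-OMU01 replicate 1) and ugt-45 (0.173 without MI-OMU01 replicate 2) each ended when that library was left out.

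**Figure D2:**
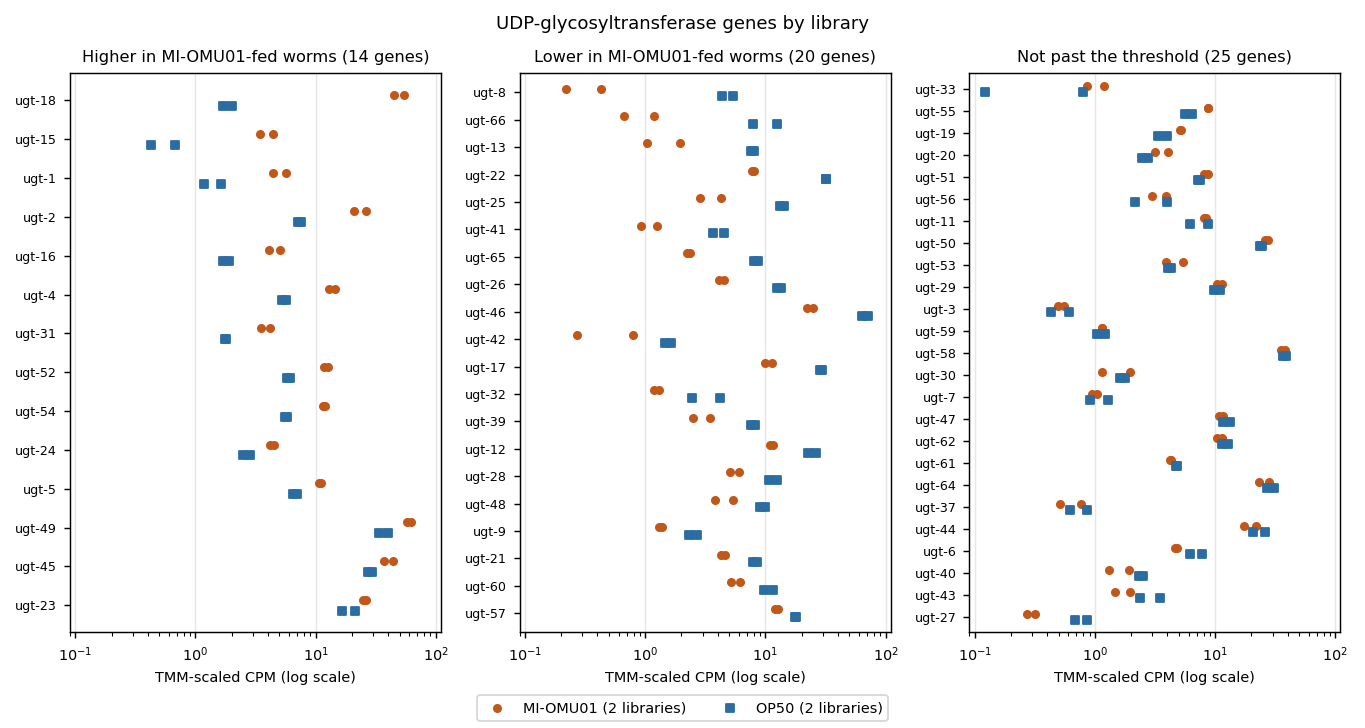
TMM-scaled CPM (log scale) of the 59 tested ugt genes in each library, 2 points per diet and no error bars, in 3 panels for the 14 higher, 20 lower and 25 other genes, each sorted by fold change from the largest down or up. MI-OMU01 and OP50 points are far apart for ugt-18, ugt-15, ugt-8 and ugt-66 and mostly close together in the panel of genes that did not pass. Of these, ugt-15 and ugt-8 reached the count filter in both libraries of only a single group.

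Since ugt transcripts differ in length (1536 to 2268 exonic bases), levels of different members were compared only as TPM. The 6 members with the highest mean TPM over the 4 libraries were ugt-49, ugt-58, ugt-45, ugt-46, ugt-18 and ugt-64. ugt-49 led in MI-OMU01-fed worms with 55.6 and 50.4 TPM, against 26.9 and 31 TPM in OP50-fed worms, and it rose 1.62-fold in CPM (adjusted p = 0.000256, edgeR). ugt-18 came next in MI-OMU01-fed worms with 39.0 and 46.5 TPM, against 1.56 and 1.28 TPM in OP50-fed worms.

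Among these highest members were also genes that did not pass. ugt-58 had 29.3 and 31.3 TPM in MI-OMU01-fed worms and 28.6 and 26.3 TPM in OP50-fed worms (log2 fold change -0.03 in CPM, SE 0.13, adjusted p = 0.892, edgeR). ugt-64 had 23.9 and 19.3 TPM in MI-OMU01-fed worms and 23 and 20 TPM in OP50-fed worms (log2 fold change -0.18, SE 0.14, adjusted p = 0.404). ugt-45 had 32.5 and 37.7 TPM in MI-OMU01-fed worms and 22.9 and 20.5 TPM in OP50-fed worms. In OP50-fed worms ugt-46 led with 36.6 and 40.7 TPM, against 14.4 and 15.9 TPM in MI-OMU01-fed worms. At 1 TPM or more were 51 and 50 of the 66 genes in the MI-OMU01 libraries and 52 in each OP50 library.

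**Figure D3:**
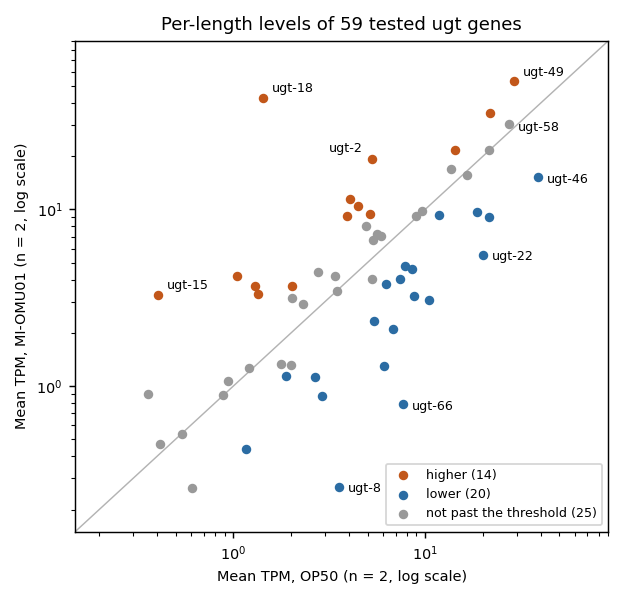
Mean TPM of the 59 tested ugt genes in MI-OMU01-fed worms (vertical axis) against OP50-fed worms (horizontal axis), both on log scales, n = 2 libraries each; the line marks equal levels. ugt-18 lies far above the line near the top (39.0 and 46.5 TPM in MI-OMU01, 1.56 and 1.28 TPM in OP50), ugt-8 and ugt-66 far below it, and ugt-58 near it. ugt-8 reached the count filter in both libraries of the OP50 group only.

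The 25 tested members that did not pass had log2 fold changes from -1.35 (ugt-27) to 1.13 (ugt-33). These extremes had few reads: ugt-27 had 5 and 8 reads in the MI-OMU01 libraries and 11 and 14 in the OP50 libraries, and ugt-33 had 22 and 22 reads in the MI-OMU01 libraries and 13 and 2 in the OP50 libraries. ugt-33 passed with OP50 replicate 1 left out (2.96 on the log2 scale, adjusted p = 0.0142, edgeR) and stood at 0.34 with OP50 replicate 2 left out. Groups did not overlap for 13 of the 25 (52.0%). The 63.1% of all tested genes includes called genes, so the 2 shares cannot be compared directly. The 7 members that were not tested were ugt-10, ugt-14, ugt-34, ugt-35, ugt-36, ugt-38 and ugt-63, all on chromosome V. ugt-35 had no read in any library, where a limit of 3 reads stands for 0.170 and 0.123 CPM in the MI-OMU01 libraries and 0.177 and 0.173 CPM in the OP50 libraries. ugt-63 had 2 and 0 reads in the MI-OMU01 libraries and 17 and 7 in the OP50 libraries, too few for the filter. The other 5 had at most 7 reads in any library.

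By position, 41 of the 66 members lay on chromosome V, 12 on IV, 5 on I, 4 on X, 3 on III and 1 on II. On chromosome V 8 members were higher and 10 lower. Of all members 36 lay in 11 runs in which neighbouring ugt genes were at most 10 kb apart, and 30 stood alone. Members in runs (7 higher, 10 lower) and single members (7 higher, 10 lower) were called in equal numbers. Of the 7 runs with a called member, 3 had higher called members only, 4 had lower ones only, and none had called members of both signs. Of 17 neighbouring pairs within 10 kb with both genes tested, 6 had both genes called in the same direction (4 higher, 2 lower) and 0 in opposite directions. Some of these ugt pairs had other coding genes between them. With no coding gene between, 5 of 14 tested ugt pairs were called in the same direction and 0 in opposite directions. Among the 11211 tested pairs of neighbouring protein-coding genes in the whole genome at the same spacing, 6.74% were called in the same direction and 3.51% in opposite directions. These are counts of few pairs, without a test, in a family with a larger share of called genes. The run counts include ugt-8, and the run and pair counts include ugt-15. Both reached the count filter only through the group where they were high. Without OP50 replicate 2, 1 pair (ugt-4 and ugt-6) was called in opposite directions.

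The runs differed in direction and in evenness. On chromosome I (4721131 to 4735276), ugt-26, ugt-28 and ugt-25 fell and ugt-27 did not pass (-1.35 on the log2 scale, adjusted p = 0.0802, edgeR). The summed level of this run was 14.6 and 12.7 CPM in MI-OMU01-fed worms and 38.9 and 39.5 CPM in OP50-fed worms. The 7-member run of chromosome V (4887187 to 4911399) stood at 21.5 and 23.8 CPM in MI-OMU01-fed worms and at 44.5 and 50.1 CPM in OP50-fed worms. Here ugt-12, ugt-9, ugt-8 and ugt-13 fell, whereas ugt-11, in their midst, had 8.08 and 8.33 CPM in MI-OMU01-fed worms and 6.20 and 8.65 CPM in OP50-fed worms (log2 fold change 0.15, adjusted p = 0.658). In the 6-member run (7139477 to 7169281) ugt-39 and ugt-41 fell. The run that holds ugt-18 stood at 53.5 and 63.0 CPM in MI-OMU01-fed worms and at 4.36 and 4.08 CPM in OP50-fed worms. The run ugt-5, ugt-4, ugt-6 and ugt-3 was uneven, since ugt-5 (1.62-fold) and ugt-4 rose while ugt-6, 147 bases from ugt-4 on the same strand, had 4.66 and 4.83 CPM in MI-OMU01-fed worms and 7.73 and 6.15 CPM in OP50-fed worms (log2 fold change -0.55, adjusted p = 0.0729). The adjusted p of ugt-6 was 0.0314 when OP50 replicate 2 was left out.

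**Figure D4:**
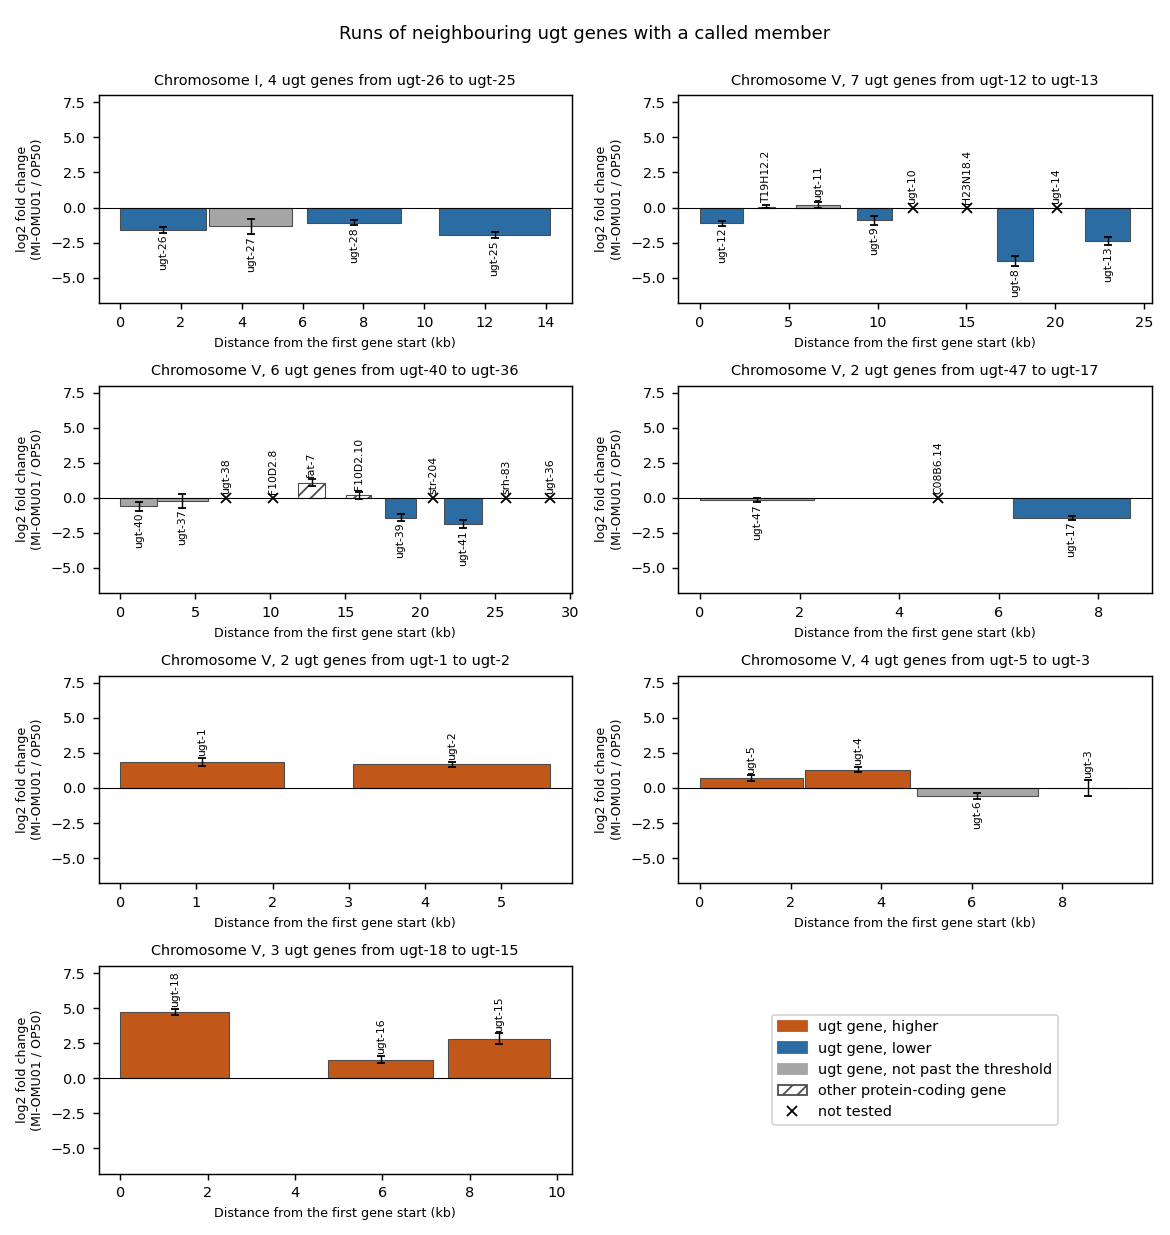
Log2 fold change (MI-OMU01 over OP50, bars, with SE from edgeR) along the 7 runs of neighbouring ugt genes that hold a called member, placed by distance in kb from the start of the first gene; bar width is gene length, hatched bars are other protein-coding genes and crosses are genes not tested. All called ugt genes of a run point the same way: upward in the 3 runs that start with ugt-1, ugt-5 and ugt-18, downward in the other 4.

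Genes other than ugt genes that flank or interrupt the family were examined next. There were 89 protein-coding genes that came next to a member, of which 56 were tested, and 8 were higher and 11 lower. That is 33.9% of those tested, against 29.7% of all tested genes, so the share of called neighbours was close to the background. Scaling by total counts gave 13 higher and 7 lower, without MI-OMU01 replicate 2 there were 5 and 7, and without MI-OMU01 replicate 1 there were 7 lower. Their median absolute log2 fold change was 0.39.

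The strongest fall among the flanking genes was that of H23N18.5, a gene 312 bases from ugt-13 on the other strand. It had 0.705 and 0.511 CPM in MI-OMU01-fed worms and 8.96 and 11.3 CPM in OP50-fed worms, a 16.8-fold fall (log2 fold change -4.07, SE 0.30, adjusted p = 2.96e-09, edgeR). The MI-OMU01 values rest on 13 and 13 reads. H23N18.5 reached the count filter in both libraries of the OP50 group only, so its difference is partly fixed by the filter. Within that run the gene H23N18.4, which the annotation of WBcel235 names ugt-67 and the count tables do not, had 6 and 4 reads in MI-OMU01-fed worms and 0 and 2 reads in OP50-fed worms and was not tested. T19H12.2, between ugt-12 and ugt-11, had 196 and 168 CPM in MI-OMU01-fed worms and 192 and 159 CPM in OP50-fed worms (adjusted p = 0.772).

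Next to ugt-46, B0310.6 fell 5.30-fold, as did F15H10.8, the gene after ugt-2, by 3.48-fold, although ugt-2 rose. B0310.6 had 6 and 10 reads in the MI-OMU01 libraries and 29 and 35 in the OP50 libraries. It too reached the count filter only through the OP50 group. The ADAMTS-type metalloprotease gene adt-1, near ugt-50, fell 3.41-fold. The largest rises were those of C03A7.13 next to ugt-51 (6.40-fold, 5.80 and 4.13 CPM in MI-OMU01-fed worms, 0.920 and 0.609 CPM in OP50-fed worms), of the beta-tubulin gene tbb-6 after ugt-56 (3.24-fold), of C44H9.4 after ugt-15 (2.41-fold) and of the ubiquitin ligase gene siah-1 next to ugt-45 (2.35-fold). ugt-50, ugt-51 and ugt-56 themselves did not pass (adjusted p = 0.465, 0.482 and 0.760). The fatty acid desaturase gene fat-7 lies inside the run of falling ugt-39 and ugt-41 and rose 2.11-fold, with 11.5 and 7.54 CPM in MI-OMU01-fed worms and 4.79 and 4.20 CPM in OP50-fed worms.

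The stretch around ugt-18 was looked at in full after its values were seen. From 12789197 to 12839783 on chromosome V it holds 15 protein-coding genes, 8 of them not ugt genes. Of these 8, 3 were higher, none was lower, 2 did not pass and 3 were not tested. ZC443.3 had 101 and 99.9 CPM in MI-OMU01-fed worms against 28.5 and 34.7 CPM in OP50-fed worms (3.18-fold, adjusted p = 3.57e-09, edgeR), and ZC443.4, beside ugt-18, had 56.8 and 59.1 CPM in MI-OMU01-fed worms against 24.5 and 34.5 CPM in OP50-fed worms (1.96-fold). The protein-coding genes from ZC443.3 through ZC443.4, ugt-18, ugt-16 and ugt-15 to C44H9.4 thus all passed as higher, with ugt-18 moving most.

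The donors of the reaction, UDP-sugars, are made and carried by other enzymes and transporters. Of 20 tested genes of UDP-sugar supply and transport, 0 were higher and 5 (25%) lower in edgeR, where 14.6% and 15.2% of all tested genes were (median log2 fold change -0.10). At an unadjusted p under 0.05, and in DESeq2, 0 were higher as well, and 3 were lower without either MI-OMU01 library or scaled by total counts. The UDP-glucose pyrophosphorylase homolog K08E3.5 had 212 and 198 CPM in MI-OMU01-fed worms and 216 and 201 CPM in OP50-fed worms, and the UDP-glucose dehydrogenase gene sqv-4, for UDP-glucuronic acid, 68.6 and 65.0 CPM in MI-OMU01-fed worms and 85.8 and 63.5 CPM in OP50-fed worms (adjusted p = 0.9 and 0.408). Both were named after their values were seen. The nucleotide-sugar transporter genes nstp-3 and srf-3 fell 4.15-fold and 1.80-fold. The other lower genes of this list were R05F9.6 (1.49-fold, adjusted p = 0.000314, edgeR), hut-1 (1.33-fold, 0.0178) and gale-1 (1.30-fold, 0.0144). Of 16 other genes for enzymes that draw on UDP-sugars, 1 was higher (6.25%) and 2 were lower (12.5%), both shares below those of all tested genes (median log2 fold change -0.10). These were ogt-1, for O-GlcNAc transferase (1.26-fold higher, adjusted p = 0.0259, but 0.0565 in DESeq2, 0.200 without OP50 replicate 1, 0.103 without MI-OMU01 replicate 1 and 0.290 without MI-OMU01 replicate 2), tps-2, for trehalose phosphate synthase (1.78-fold lower), and uggt-1, which marks misfolded glycoproteins in the endoplasmic reticulum (1.56-fold lower).

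Of 32 tested regulators of detoxification, 7 were higher (21.9%) and 4 lower (12.5%), near the 14.6% and 15.2% of all tested genes, with a median log2 fold change of 0.12 where that of all tested genes was 0.03. The nuclear receptor gene nhr-176, known for the induction of a cytochrome P450 by thiabendazole, rose 2.62-fold (5.37 and 5.85 CPM in MI-OMU01-fed worms, 1.72 and 2.56 CPM in OP50-fed worms), and the intestinal GATA factor gene elt-7 1.62-fold, with an adjusted p of 0.0129 that was 0.0841 if OP50 replicate 1 and 0.107 if MI-OMU01 replicate 1 was left out. The nuclear receptor genes nhr-114 and daf-12 fell 2.05-fold and 1.95-fold. Leaving out a library gave 4 (OP50 replicate 1), 3 (MI-OMU01 replicate 1) or 2 (MI-OMU01 replicate 2) higher regulators, and 11, beside 3 lower, when scaled by total counts. In other detoxification families, 30 of 63 tested cytochromes P450 were higher (47.6%) and 4 lower (6.35%; 2 genes without MI-OMU01 replicate 1), beside the same 14.6% and 15.2% of all tested genes. Several of the higher cytochromes P450 reached the count filter in both libraries of the MI-OMU01 group only. Examples are cyp-13A3 (12 and 21 reads in MI-OMU01, 0 and 0 in OP50) and cyp-13A4 (20 and 45, against 3 and 4). Such calls are partly fixed by the filter, so the 47.6% is no support for a difference from all tested genes. Of 39 tested glutathione S-transferases 7 were higher (17.9%, near that of all tested genes) and 10 lower (25.6%). The higher ones numbered 3 in DESeq2, 4 if OP50 replicate 2 was left out and 2 if MI-OMU01 replicate 2 was. The carboxylesterase gene cest-1 rose 3.63-fold. Differences between the families were not tested.

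Some marker genes of several tissues were called too, where 14.6% of all tested genes were higher and 15.2% lower. Each tissue has few markers, and the counts were not tested against these shares. Of 8 intestinal markers 4 were higher and 2 lower, and their summed level was 9888 and 10294 CPM in MI-OMU01-fed worms and 5085 and 5574 CPM in OP50-fed worms. Most of this came from the protease gene asp-1 (8319 and 8553 CPM in MI-OMU01-fed worms, 3217 and 3621 CPM in OP50-fed worms). Without asp-1, left out after its values were seen, the other 7 summed to 1569 and 1741 CPM in MI-OMU01-fed worms and 1868 and 1953 CPM in OP50-fed worms, the opposite direction. Of 6 hypodermal markers 4 were lower (307 and 279 CPM in MI-OMU01-fed worms, 509 and 532 CPM in OP50-fed worms). Of 5 body wall muscle markers 3 were lower (4454 and 5227 CPM in MI-OMU01-fed worms, 6010 and 6997 CPM in OP50-fed worms). Of 5 tested embryonic markers 3 were lower. All 8 listed embryonic markers summed to 6.40 and 3.97 CPM in MI-OMU01-fed worms and 10.9 and 11 CPM in OP50-fed worms. Among the lower ones, tbx-37 (8 and 6 reads in MI-OMU01, 16 and 16 in OP50) and tbx-38 (9 and 1, against 25 and 39) reached the count filter only through the OP50 group. Their calls are thus partly fixed by the filter. For 8 germ line markers 1 was lower, for 4 pharyngeal markers 3 were higher, for 8 neuronal markers 1 was higher and for 5 tested sperm markers 2 were higher. No marker was at 0 in every library. The part of these marker differences in the ugt results was not tested.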

How the data were processed

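Per the labels, messenger RNA of whole worms was sequenced from stranded libraries. The deposited files hold raw counts of reads per gene, made by the authors with the tools in the submitters' processing notes: STAR 2.7.2b, featureCounts 1.6.4 and cutadapt 2.7, Trimmomatic 0.39 and Trim Galore 0.6.5, with builds WBcel235 and ce11. How multi-mapping reads and strand were handled, and with which annotation, is not given in the sources used here, so reads of similar ugt copies or of overlapping genes may be split, lost or mixed. Among such overlaps, exons of ugt-40 and ugt-37 share 23 bases, and ugt-48 shares 98 bases with cft-1 on the other strand. ugt-59 shares 14 bases with sir-2.1, also on the other strand. The gene col-130 lies within the span of ugt-65 on the other strand, without shared exonic bases.

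Coordinates are those of the files. Gene types were taken from Ensembl 115 for WBcel235, where all 66 ugt genes were found, 14 of them with the same start and end. Neighbours were found by the coordinates of the files among the genes typed there as protein-coding. No sequence was used here.

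The main test was edgeR 4.0.16 in R 4.3.3: filterByExpr (minimum count 10, minimum total 15), TMM scaling (factors 1.05 and 1.04 for MI-OMU01, 0.962 and 0.948 for OP50), robust quasi-likelihood fit over all genes with the group as its only term, and Benjamini-Hochberg adjustment over all genes tested. SE is the log2 fold change over the square root of F. The script was tested on simulated data. TPM used all genes and the exonic length in the files. Floors (3 reads) cover counting error only. DESeq2 1.42.0 was an alternative.

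The members and lists were chosen with earlier results of these data known. Values are given for the 10 largest rises and falls, the 6 highest members by TPM, at most 2 rises and 2 falls in each list and 4 of each among flanking genes. ZC443.3, fat-7, T19H12.2, H23N18.4, R05F9.6, hut-1, gale-1 and the ugt genes that did not pass were also named after their values were seen. Of the listed names pgmt-1 had no match.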

Additional observations from a re-analysis of the deposited data

How the results depend on the processing

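Alternatives were DESeq2 size factors or total counts as library sizes in edgeR, DESeq2, no filter on low counts, a filter at 5 CPM in 2 libraries, the replicate number as a block and each library left out. Over these, 25 of the 34 called ugt genes (9 higher, 16 lower) stayed past the threshold in the same direction wherever they were tested, and 0 turned their direction. Leaving out a library ended some of the 34 calls, as given above by gene. With the filter at 5 CPM, which tests fewer genes, 5 ugt genes were at least 2-fold higher, 2 neighbouring pairs moved together and 5 flanking genes were higher. Total counts as library sizes gave 13 higher and 7 lower flanking genes and reversed the summed family ratio to 1.02; the cause was not tested. Without a library, flanking genes numbered 5 to 8 higher and 7 to 11 lower, and opposite pairs 0 to 1.

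Samples with the same replicate number share only that number: with the replicate block 15 ugt genes were higher and 22 lower, and 1 pair (ugt-4 and ugt-6) was opposite, while deviations of same-numbered libraries correlated at 0.14 across genes, which are not independent. Counts in the lists that moved and are not given above were 2 higher glutathione S-transferases and 16 higher cytochromes P450, both at 5 CPM. In UDP-sugar supply 1 gene was higher with total counts or the replicate block, and among other users of UDP-sugars 2 were higher in these fits and 0 in DESeq2. Summing of near-identical copies and the search for promoter motifs were not run, because no sequence was used here. At these depths genes that reached about 0.573 CPM in fewer than 2 libraries were not tested.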
